A study of Mus musculus with 14 samples.

Results

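The homeostatic chemokine genes Cxcr5, Cxcl13, Ccr7 and Ccl19, 4 of 19937 genes measured, were followed in the mouse left ventricle. They were chosen by name, and every probe set listed with 1 of these symbols was read, which gave 1 probe set each for Cxcr5, Cxcl13 and Ccr7 and 4 for Ccl19, 7 in all. Left ventricles of male mice were taken 3 weeks after surgery and hybridized to Affymetrix mouse ST 1.0 arrays, 1 array per mouse and 14 in all. WT mice were C57BL/6. CXCR5-/- mice carried the Cxcr5tm1Lipp allele, in which a neomycin resistance gene takes the place of the coding region, made in embryonic stem cells of another inbred strain and crossed back to C57BL/6 over 8 generations. The deletion is in the germline and is carried by all cells. In aortic banding (AB) a ligature narrows the ascending aorta, which puts the left ventricle under pressure overload, and Sham mice had the operation with no constriction. There were 3 Sham and 4 AB mice of each genotype, and no age was given in the sources used here. All values are log2 expression after robust multi-array average, and differences between groups are log2 differences from limma with the standard error (SE) of the fit, the 95% interval where given, and p values adjusted over all genes.

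CXCR5 is a G protein-coupled receptor of B cells and follicular helper T cells, and it draws these cells along a gradient of its ligand CXCL13 into B cell follicles. CCR7 is the matching receptor of naive T cells and mature dendritic cells, and its ligands CCL19 and CCL21 guide these cells into the T cell zone of lymph nodes. Stromal cells of lymphoid tissue make the ligands, in part under control of the lymphotoxin β receptor and noncanonical NF-κB, and the same chemokines appear in chronically inflamed tissue.

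Transcripts of ventricular muscle were high on every array, and most of those of lymphocytes and dendritic cells were not above background on every array. All 7 markers of ventricular muscle were above background on every array, and their mean lay between 11.99 and 12.31. Background was taken from 1204 probe sets of olfactory and vomeronasal receptors, genes of sensory neurons, whose 95th percentile lay at 4.44 to 4.68 over the arrays. Of 11 B cell markers, 3 were above this level on every array and 4 on no array. Of 12 T cell markers, 4 were above it on every array and 3 on no array. Of 11 dendritic cell markers, 4 were above it on every array and 3 on no array. Fewer cells of a type and less RNA per cell cannot be told apart in RNA of whole tissue. The atrial myosin light chain gene Myl7 read 9.09 on WT Sham replicate 1 and 9.68 and 8.82 on CXCR5-/- Sham replicates 1 and 2, against 5.65 to 7.49 on the other arrays. Over 4 atrial muscle markers the mean was highest on CXCR5-/- AB replicate 4 (7.45), against 7.08, 7.36 and 6.82 on these Sham arrays. That AB array was kept, so leaving out the 3 Sham arrays concerns Myl7 and not all atrial markers. Without the 3 Sham arrays with high Myl7, 2 WT Sham arrays and 1 CXCR5-/- Sham array remain. The lone array has to be taken to vary like the other groups. A call lost in that setting is therefore not told apart from the loss of replicates, and the size of the difference is given in its place.

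**Figure D1:**
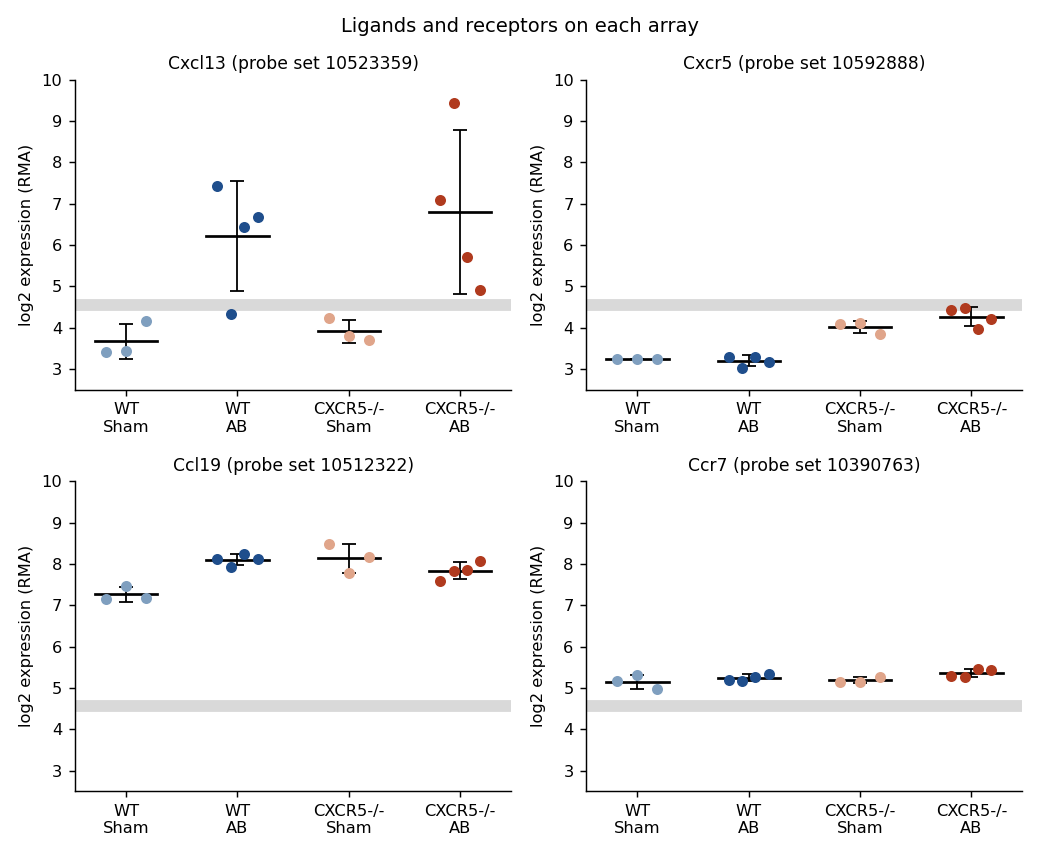
Log2 expression (y axis) of Cxcl13, Cxcr5, Ccl19 and Ccr7 in the 4 groups (x axis), 1 point per array, with the group mean (line) and SD (bars). The grey band is the range over arrays of the 95th percentile of 1204 sensory receptor probe sets, 4.44 to 4.68. Cxcl13 lies below the band on all 6 Sham arrays and above it on 7 of 8 AB arrays, Cxcr5 is higher on every CXCR5-/- array than on every WT array, Ccl19 is lowest in WT Sham, and Ccr7 stays within 4.98 to 5.46.

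The ligand gene Cxcl13 rose with AB in both genotypes and varied widely between banded hearts. Its probe set (10523359) lay at 3.41, 3.45 and 4.15 on the WT Sham arrays and at 7.42, 4.32, 6.44 and 6.68 on the WT AB arrays. In CXCR5-/- hearts it lay at 4.23, 3.81 and 3.69 after Sham and at 7.10, 9.45, 5.72 and 4.92 after AB. Every AB array was therefore above all 6 Sham arrays, which held for 5.45% of all genes. The 6 Sham arrays were below the 95th percentile of the receptor probe sets, and so was WT AB replicate 2, while the other 7 AB arrays were above it.

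The mean of Cxcl13 went from 3.67 ± 0.42 (SD, n = 3) in WT Sham to 6.22 ± 1.33 (SD, n = 4) in WT AB hearts, a difference of 2.55 (SE 0.78, 95% interval 0.91 to 4.19, limma adjusted p = 0.0485), in a comparison where 5.1% of all genes rose. In CXCR5-/- hearts it went from 3.91 ± 0.28 (SD, n = 3) to 6.80 ± 1.98 (SD, n = 4), a difference of 2.89 (SE 0.78, 95% interval 1.25 to 4.53, limma adjusted p = 0.0179), where 8.28% of all genes rose. Because no Sham array was above background, the sizes were also computed with each Sham array set at the receptor probe sets' 95th percentile. AB was then 3.24-fold higher in WT and 4.72-fold higher in CXCR5-/- hearts. These are point estimates and not lower limits, and WT AB replicate 2, itself below background, kept its read value. Averaged over the genotypes the difference was 2.72 (SE 0.55, 95% interval 1.56 to 3.88, limma adjusted p = 0.00140), where 12.3% of all genes rose. The call in WT ended without any 1 of 10 arrays, all but WT AB replicate 2 and CXCR5-/- AB replicates 2, 3 and 4, with differences from 2.14 to 3.18 over all arrays left out in turn, and after quantile normalization or median centring. The call in CXCR5-/- hearts ended without CXCR5-/- Sham replicate 2 or 3 (2.84 and 2.78), and both calls ended with variances robust to outlying genes. Without the 3 Sham arrays with high Myl7 the differences were 2.41 in WT and, against 1 Sham array, 3.10 in CXCR5-/- hearts. The mean over both genotypes passed with each array left out in turn (2.27 to 3.03).

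The AB responses of Cxcl13 in the genotypes differed by 0.34 (CXCR5-/- minus WT, SE 1.10), with a 95% interval of -1.98 to 2.66 that leaves room for a difference as large as the responses themselves. No gene passed in this comparison (0% of 19937), where 574 genes had an unadjusted p under 0.05. Between hearts labelled CXCR5-/- and WT hearts Cxcl13 differed by 0.24 after Sham (95% interval -1.51 to 1.99) and by 0.58 after AB (95% interval -0.94 to 2.10), and neither passed. After AB the sign turned without CXCR5-/- AB replicate 2 (-0.30) and without WT AB replicate 2 (-0.048), over a range of -0.30 to 1.21, and the sign of the difference of the responses turned without the same arrays (-0.54 and -0.29). The order of the 4 group means was WT Sham, CXCR5-/- Sham, WT AB and CXCR5-/- AB, and of its neighbours only CXCR5-/- Sham and WT AB did not overlap.

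The residual SD of Cxcl13 around the 4 group means was 1.33, the 4th largest of 19937 genes, whose median was 0.148. The spread lay in the AB groups, where the lowest and highest arrays were 3.10 and 4.53 apart. A pair of marker lists shared its extremes among the AB arrays, and not its order between them. This pair was picked from all the marker lists after the values were seen, so the match is a description. CXCR5-/- AB replicate 2, the highest in Cxcl13, had the highest mean of 7 mesothelium markers (6.14) and of 4 adipocyte markers (6.63) of all arrays. WT AB replicate 2 and CXCR5-/- AB replicate 4, the lowest AB arrays in Cxcl13, had the lowest means of both lists among the AB arrays (5.37 and 5.36 for mesothelium, 4.82 and 4.88 for adipocyte). On the AB arrays between, the mesothelium mean rose as Cxcl13 fell. It went from 5.72 on WT AB replicate 1 (Cxcl13 7.42) to 6.11 on CXCR5-/- AB replicate 3 (Cxcl13 5.72). The adipocyte mean went up and down over them (5.29 to 5.87). Over the Sham arrays the mesothelium mean ran from 5.0 to 5.58 and the adipocyte mean from 4.44 to 5.44. Averaged over the genotypes, 5 of 7 mesothelium markers rose with AB, where 12.3% of all genes did, from 0.38 for Krt19 to 0.92 for Upk1b, and none of 4 adipocyte markers passed. Within a genotype no gene of either list passed, with median differences of 0.51 in WT and 0.34 in CXCR5-/- hearts for mesothelium and 0.68 and 0.55 for adipocytes. Of these markers, 6 of 7 mesothelium and 2 of 4 adipocyte markers were above background on every array, and the part of these cells in the level of Cxcl13 was not tested.

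**Figure D2:**
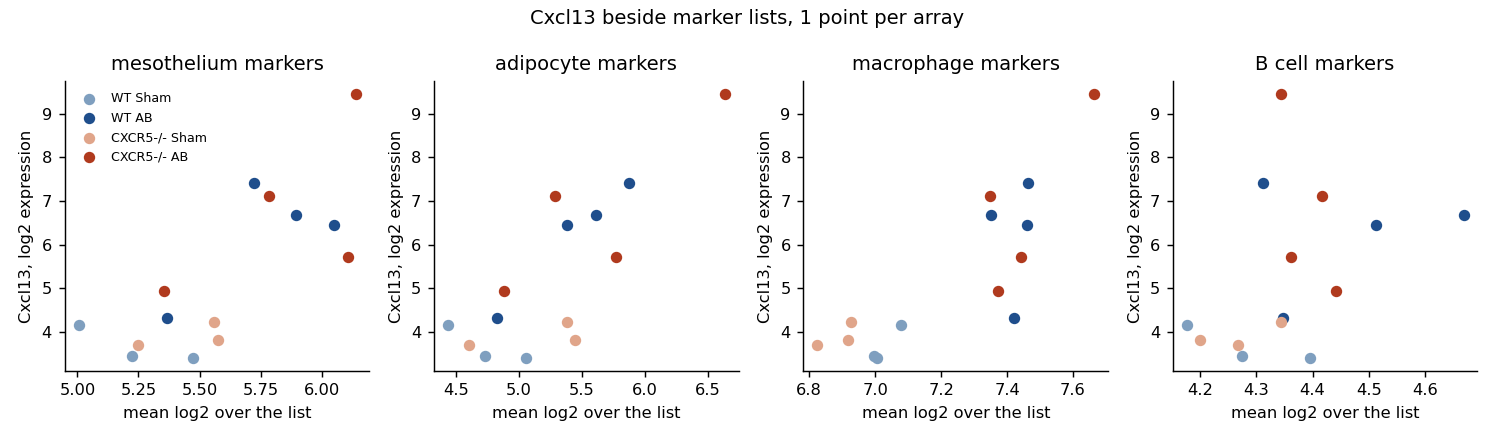
Cxcl13 (y axis, log2 expression) against the mean log2 expression over marker lists of mesothelium (7 genes), adipocytes (4), macrophages (12) and B cells (11) (x axes), 1 point per array, coloured by group. The highest Cxcl13 value, 9.45, falls with the highest mesothelium, adipocyte and macrophage means (6.14, 6.63 and 7.66), whereas the B cell means stay between 4.18 and 4.67.

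Macrophage markers were higher after AB throughout, with means of 7.35 to 7.66 on AB arrays and 6.82 to 7.08 on Sham arrays, and their part in the level of Cxcl13 was not tested. Markers of B cells, the cells on which CXCR5 is best known, had means of 4.31 to 4.67 in WT AB and 4.34 to 4.44 in CXCR5-/- AB hearts, against 4.18 to 4.39 in WT Sham and 4.20 to 4.34 in CXCR5-/- Sham hearts. None of the 11 passed for AB in either genotype, and averaged over the genotypes 3 of 11 rose (Cd79a by 0.37, Cd79b by 0.29 and Fcrla by 0.27), where 12.3% of all genes did. Of these, Cd79b was above background on all 14 arrays, Cd79a on 1 array and Fcrla on no array.

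The 5 genes whose levels followed Cxcl13 most closely over the 14 arrays were Il17ra (Pearson r 0.934), Maff (0.931), Hp (0.926), Plac8 (0.92) and Fcgr3 (0.916). The probe set of Plac8 lay below background on every array (2.60 to 3.72). Il17ra encodes a subunit of the interleukin-17 receptor, Maff a small Maf transcription factor, Hp haptoglobin, an acute phase protein, and Fcgr3 a receptor for immunoglobulin G of myeloid cells. The points share the AB and Sham groups. Deviations from the group means had r of 0.891 for Il17ra and 0.816 to 0.894 for the others. The genes were chosen by r on these same arrays, so these values are descriptions. Il17ra rose with AB by 0.46 in WT (SE 0.11, limma adjusted p = 0.0120) and with a difference of 0.61 in hearts labelled CXCR5-/- (SE 0.11, limma adjusted p = 0.00100), and its call in WT ended without WT Sham replicate 2 (0.44).

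The ligand genes Cxcl13, in both genotypes, and Ccl19, in WT hearts and by its brightest probe set only, passed for AB. Which copy of Ccl19 that probe set reads is uncertain. The 250 bases before the starts of both genes are shown, 5′ to 3′ on the strand of the gene, from RefSeq on GRCm38.p6. Cxcl13 (chr5:95956689-95956938, plus strand) holds a TATA box core, TATAAA, in capitals, 46 bases before the start. Ccl19 (chr4:42756366-42756615, minus strand) holds the core of an interferon-stimulated response element, spelled GAAA, any 2 bases, GAAA, in capitals, 208 bases before the start.
Cxcl13: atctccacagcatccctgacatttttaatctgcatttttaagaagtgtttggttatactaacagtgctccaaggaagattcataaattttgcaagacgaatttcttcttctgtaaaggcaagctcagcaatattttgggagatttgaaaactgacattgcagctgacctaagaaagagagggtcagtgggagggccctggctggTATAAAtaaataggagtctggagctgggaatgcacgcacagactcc
Ccl19: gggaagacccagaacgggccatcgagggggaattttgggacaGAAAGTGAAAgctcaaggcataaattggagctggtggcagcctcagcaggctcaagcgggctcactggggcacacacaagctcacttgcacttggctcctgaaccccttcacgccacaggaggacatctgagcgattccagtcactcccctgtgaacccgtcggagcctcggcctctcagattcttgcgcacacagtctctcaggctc
Searched on both strands of 32851 promoters of this length, TATAAA was found in 12.4% and the response element core in 2.98%. The κB consensus, found in 7.25% of them, was not in these 2 windows, which says only that its letters are absent there. No promoter of Cxcr5 or Ccr7 was used here.

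The probe set of Cxcr5 (10592888) was higher in every heart labelled CXCR5-/- than in every WT heart, near background throughout. It lay at 3.23, 3.23 and 3.24 in WT Sham and at 3.30, 3.03, 3.30 and 3.18 in WT AB hearts. It lay at 4.09, 4.11 and 3.85 in CXCR5-/- Sham and at 4.43, 4.47, 3.97 and 4.21 in CXCR5-/- AB hearts. The 7 CXCR5-/- arrays were all above the 7 WT arrays, which held for 0.0652% of all genes. The probe set was above the 95th percentile of the receptor probe sets on 1 array, CXCR5-/- AB replicate 2, and its mean was at the 81.3 percentile of them, so the differences are given on the log2 scale with no fold.

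The difference between hearts labelled CXCR5-/- and WT hearts was 0.78 after Sham (SE 0.13, limma adjusted p = 0.0210), where 0.0201% of all genes were higher and passed. After AB it was 1.07 (SE 0.11, limma adjusted p = 1.27e-04), where 0.0251% did. Averaged over the operations it was 0.93 (SE 0.08, 95% interval 0.75 to 1.10, limma adjusted p = 1.40e-05), where 0.0451% did. Leaving out any 1 of the 6 Sham arrays ended the call after Sham (0.74 to 0.87), and without the 3 with high Myl7 the difference between 1 CXCR5-/- and 2 WT arrays was 0.62, while the call after AB passed with each array left out in turn (0.999 to 1.17). By significance analysis of microarrays, the test named in the study's methods, neither passed, and that test called 0 higher genes and 1 lower gene in each of these comparisons, where 475 and 1185 genes had an unadjusted limma p under 0.05. The sources used here do not place the probe set inside or outside the replaced coding region, and for this reason it is no check of the genotype labels.

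With AB the Cxcr5 probe set differed by -0.03 in WT hearts (SE 0.12, 95% interval -0.28 to 0.22) and by 0.25 in CXCR5-/- hearts (SE 0.12, limma adjusted p = 0.194). The latter passed with estimated array weights (0.31, adjusted p = 0.0347) and without CXCR5-/- AB replicate 3 (0.35, adjusted p = 0.0472). The responses differed by 0.28 (95% interval -0.07 to 0.63), which did not pass. The order of the group means was WT AB, WT Sham, CXCR5-/- Sham and CXCR5-/- AB, and of these neighbours only WT Sham and CXCR5-/- Sham did not overlap. On the WT arrays the probe set lay at the 59.5 to 69.5 percentile of the receptor probe sets. A rise in WT hearts could therefore go unread here. By real-time PCR on more WT hearts, the paper reports a significant rise of CXCR5 with AB and none of CXCL13.

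The genes beside Cxcr5 in the RefSeq gene order, Foxr1, Upk2 and Bcl9l on one side and Ddx6, Treh and Phldb1 on the other, differed between hearts labelled CXCR5-/- and WT hearts by -0.21 to 0.18, and none passed. Of all genes, only 0.0201% after Sham and 0.0251% after AB were higher and passed. Foxr1 and Treh lay below background on every array (highest 4.04 and 4.11), so a lack of difference is not shown for them. The 5 genes most like Cxcr5 over the 14 arrays were Ppcdc (r 0.943), Fam81a (0.888), Nt5e (0.86), H3f3a (0.859) and Irx5 (0.859). In the same order, their deviations from the group means had r of 0.424, -0.292, 0.095, 0.69 and 0.429. They were chosen by r on these same arrays, so these values are descriptions. The probe set of H3f3a lay below background on every array (2.69 to 3.13). Ppcdc, Fam81a and Nt5e lie on chromosome 9, as Cxcr5 does. Ppcdc was 0.37 higher in hearts labelled CXCR5-/- (SE 0.06, limma adjusted p = 0.0144), Fam81a 0.93 higher (SE 0.08, limma adjusted p = 1.40e-05) and Nt5e 0.60 higher (SE 0.09, limma adjusted p = 0.0142), averaged over the operations. The calls of Ppcdc and Nt5e ended without CXCR5-/- Sham replicate 2 (0.35 and 0.55), and that of Ppcdc also without WT Sham replicate 2 (0.38), while without the 3 Sham arrays with high Myl7 the differences were 0.30 and 0.45. Of the 19 genes that passed in this comparison (0.0953% of all), in either direction and with Cxcr5 among them, 16 lie on chromosome 9, which holds 5.86% of all genes with a known chromosome. The part of this chromosome in the level of the Cxcr5 probe set was not tested.

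The ligand gene Ccl19 rose with AB in WT hearts by its brightest probe set, and its other probe sets did not pass. That probe set (10512322) lay at 7.15, 7.47 and 7.18 in WT Sham and at 8.12, 7.94, 8.25 and 8.12 in WT AB hearts. It lay at 8.49, 7.78 and 8.16 in CXCR5-/- Sham and at 7.58, 7.83, 7.85 and 8.09 in CXCR5-/- AB hearts. WT Sham arrays were the lowest of all 14 and did not overlap WT AB arrays, whereas Sham and AB overlapped in CXCR5-/- hearts. Groups that did not overlap, with AB higher, were found in WT for 9.39% of all genes.

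The AB difference of this probe set was 0.84 in WT hearts (SE 0.15, 95% interval 0.53 to 1.15, limma adjusted p = 0.00139), or 1.79-fold, and it passed with each array left out in turn (0.78 to 0.94). In CXCR5-/- hearts it was -0.31 (SE 0.15, 95% interval -0.62 to 0.01, limma adjusted p = 0.207). The responses differed by -1.15 (CXCR5-/- minus WT, SE 0.21, 95% interval -1.59 to -0.70). Its unadjusted p of 4.04e-05 was the smallest of 19937 genes in that comparison, and it did not pass after adjustment (adjusted p = 0.804). After Sham, hearts labelled CXCR5-/- were 0.88 higher than WT hearts (SE 0.16, 95% interval 0.54 to 1.21), which did not pass (limma adjusted p = 0.0802). It passed with estimated array weights (0.72, adjusted p = 0.0130) and without CXCR5-/- Sham replicate 2 (1.06, adjusted p = 0.0180). After AB the genotypes differed by -0.27 (SE 0.14, limma adjusted p = 0.856). In order, the means were 7.27 ± 0.18 (SD, n = 3) in WT Sham, 7.84 ± 0.21 (SD, n = 4) in CXCR5-/- AB, 8.11 ± 0.13 (SD, n = 4) in WT AB and 8.14 ± 0.35 (SD, n = 3) in CXCR5-/- Sham, and of the neighbours only WT Sham and CXCR5-/- AB did not overlap.

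**Figure D3:**
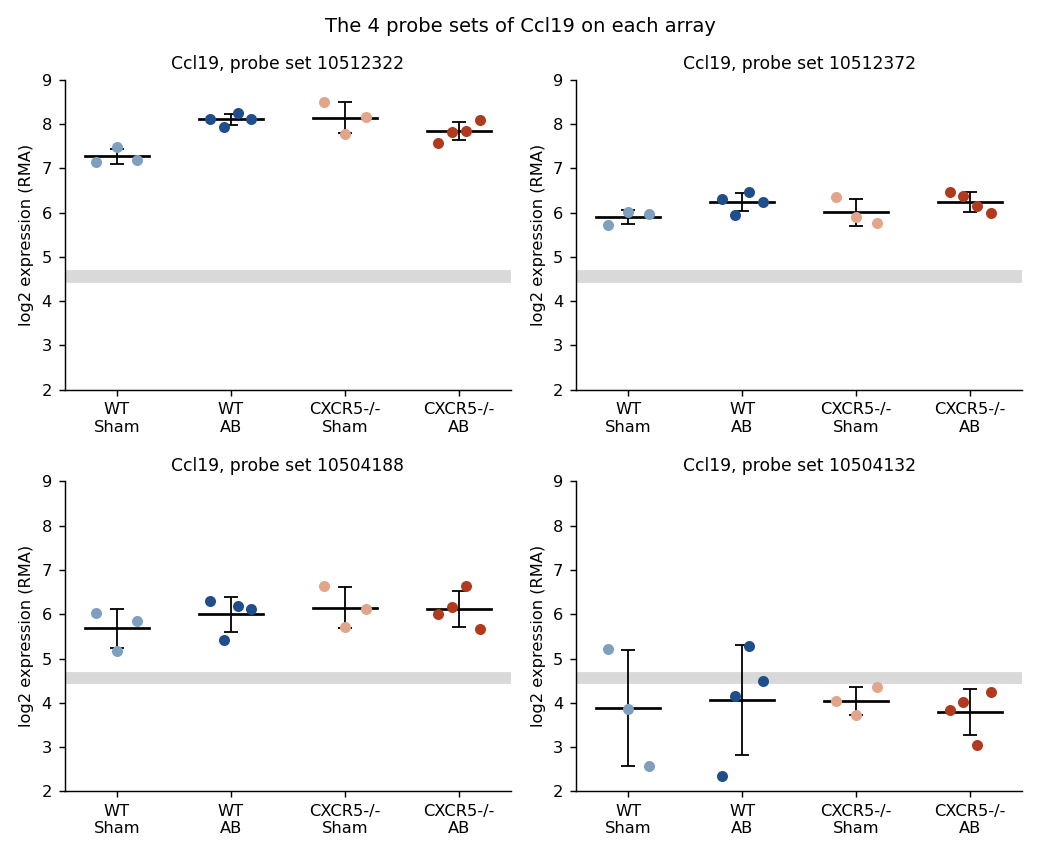
Log2 expression (y axis) of the 4 probe sets of Ccl19 in the 4 groups (x axis), 1 point per array, with the group mean (line), the SD (bars) and the background band of 4.44 to 4.68. Probe set 10512322 has WT Sham below all arrays of the other groups, which the other 3 probe sets do not, and 10504132 straddles the band.

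The other probe sets of Ccl19 moved less. Probe set 10512372 differed with AB by 0.34 in WT (95% interval 0.02 to 0.66) and by 0.24 in CXCR5-/- hearts (95% interval -0.09 to 0.56). Probe set 10504188 differed by 0.32 (95% interval -0.23 to 0.87) and -0.04 (95% interval -0.59 to 0.52). Probe set 10504132 differed by 0.19 (95% interval -1.02 to 1.40) and -0.25 (95% interval -1.46 to 0.96), and it was above background on 3 arrays only, where the others were on all 14. Across the 14 arrays the 4 probe sets correlated pairwise with r from -0.10 to 0.44, and their deviations from the group means with r from -0.12 to 0.39. After Sham, hearts labelled CXCR5-/- differed from WT hearts by 0.10 for 10512372, 0.47 for 10504188 and 0.16 for 10504132, against 0.88 for the brightest. The difference of the AB responses was -0.10, -0.35 and -0.44 in the same order, against -1.15 for the brightest, and none of these passed. Averaged over the 4 probe sets, the AB difference of Ccl19 in WT hearts was 0.42 and did not pass (limma adjusted p = 0.178). The RefSeq gene table holds 4 entries besides Ccl19 that carry its name or synonym, of which 3 are pseudogenes, so which copies each probe set reads is uncertain.

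WT AB replicate 3, the highest WT AB array in this probe set, also had the highest means of the T cell markers (5.12, against 4.50 to 4.85 on the others) and of the thymus markers (4.57, against 3.60 to 4.11). Without it the AB difference of Ccl19 in WT hearts was 0.79 (limma adjusted p = 0.00590).

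CCL21, the other ligand of CCR7, was read by a probe set (10512377) that is listed with 7 symbols of Ccl21 copies and neighbours, so it names no single gene. It was chosen after its values were seen. It lay at 8.54, 7.75 and 8.28 in WT Sham and at 9.03, 9.14, 9.29 and 9.10 in WT AB hearts. It lay at 8.12, 8.03 and 7.89 in CXCR5-/- Sham and at 9.14, 9.32, 8.70 and 8.68 in CXCR5-/- AB hearts. Every AB array was above every Sham array, as for 5.45% of all genes. The difference was 0.95 in WT (SE 0.18, limma adjusted p = 0.0105 over 34760 probe sets) and 0.95 in CXCR5-/- hearts (SE 0.18, limma adjusted p = 0.00633), and the call in WT ended without WT Sham replicate 2 (0.73, adjusted p = 0.0551). The responses differed by -0.00 (95% interval -0.56 to 0.56).

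The receptor gene Ccr7 was above background on every array and passed in no comparison. Its probe set (10390763) lay at 5.17, 5.31 and 4.98 in WT Sham and at 5.19, 5.17, 5.28 and 5.35 in WT AB hearts. It lay at 5.16, 5.15 and 5.27 in CXCR5-/- Sham and at 5.30, 5.26, 5.46 and 5.44 in CXCR5-/- AB hearts. In order the means were 5.15 in WT Sham, 5.19 in CXCR5-/- Sham, 5.25 in WT AB and 5.37 in CXCR5-/- AB hearts, and all neighbouring groups overlapped. AB differed from Sham by 0.09 in WT (95% interval -0.11 to 0.30) and by 0.17 in CXCR5-/- hearts (95% interval -0.03 to 0.38). Between hearts labelled CXCR5-/- and WT hearts the difference was 0.04 after Sham and 0.12 after AB, and 0.08 averaged over the operations. The genes most like Ccr7 were Hephl1 (r 0.871), Slc27a6 (0.869), Gpr161 (0.849), Eif1a (0.846) and Kcnn3 (0.84), and those most like Ccl19 were Smok2a (0.806), Syt8 (0.797), Klhdc8b (0.792), Emid1 (0.791) and Sh2b2 (0.789). Of these, Hephl1, Slc27a6 and Smok2a lay below background on every array (highest 3.94, 3.80 and 3.75). With 14 arrays and 19937 genes to choose from, such r values are descriptions.

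**Figure D4:**
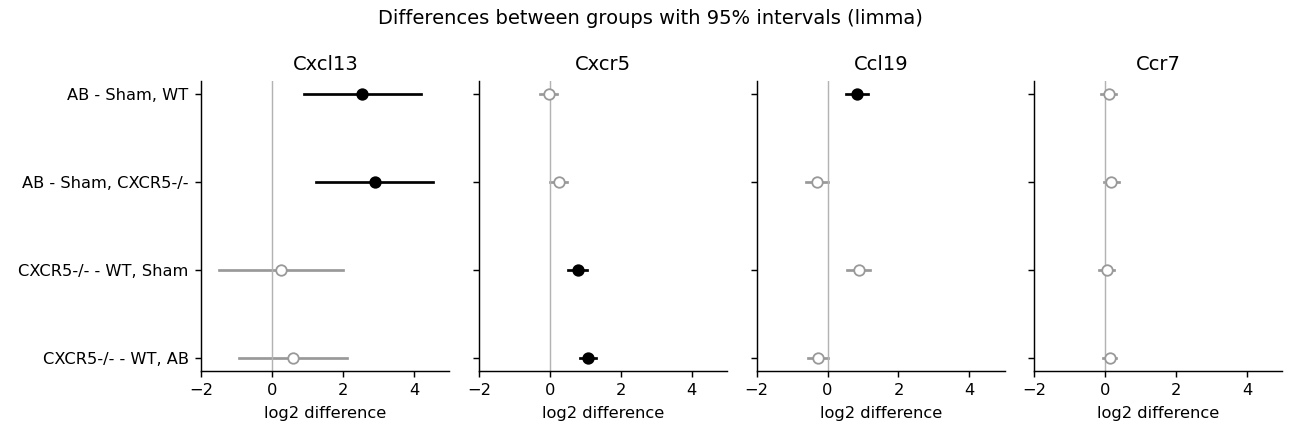
Log2 differences (x axis) of Cxcl13, Cxcr5, Ccl19 (brightest probe set) and Ccr7 for AB minus Sham in each genotype and for CXCR5-/- minus WT after each operation (y axis), with 95% intervals from limma. Filled black points passed at an adjusted p under 0.05 and open grey points did not. Cxcl13 passed for AB in both genotypes with the widest intervals, Cxcr5 between genotypes after both operations, Ccl19 for AB in WT, and Ccr7 in none.

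Around the 4 genes, other homeostatic chemokines and receptors changed in few members. Among 11 measured genes 1 rose in WT hearts, 2 rose in CXCR5-/- hearts and none fell, with a median difference of 0.07 in WT and -0.01 in CXCR5-/- hearts, where the medians over all genes were 0.01 and -0.01 and 5.1% and 8.28% of all genes rose. Averaged over the genotypes Ackr4 and Cxcr4 rose and Cxcl12 fell, in a comparison where 12.3% of all genes rose and 10.4% fell. Ackr4, which encodes an atypical receptor that takes up CCL19, CCL21 and CCL25, rose by 0.53 in WT (SE 0.15, limma adjusted p = 0.0266) and, in CXCR5-/- hearts, by 0.85 (SE 0.15, limma adjusted p = 6.31e-04). Its arrays lay at 5.98 to 6.21 in WT Sham, 6.29 to 7.05 in WT AB, 5.91 to 6.19 in CXCR5-/- Sham and 6.80 to 7.18 in CXCR5-/- AB hearts, so AB and Sham did not overlap in either genotype, as for 9.39% of all genes in WT and 13.7% in CXCR5-/- hearts with AB higher. The call of Ackr4 in WT ended without WT Sham replicate 2 or 3 or WT AB replicate 1 or 2 (0.40 to 0.56), and without the 3 Sham arrays with high Myl7 its differences were 0.58 in WT and 0.74 in CXCR5-/- hearts, the latter against 1 Sham array. Cxcr4, the receptor of CXCL12, rose by 0.78 in CXCR5-/- hearts (SE 0.23, limma adjusted p = 0.0265), and its difference in WT was 0.21 (SE 0.23, limma adjusted p = 0.679). The call of Cxcr4 ended without CXCR5-/- Sham replicate 1 or 2, and without CXCR5-/- AB replicate 3 or 4 (0.63 to 0.76), its difference from the 1 CXCR5-/- Sham array without high Myl7 was 0.49, and its responses were not shown to differ, as no gene passed there. Cxcl12, its ligand gene, differed by -0.26 in WT and -0.28 in CXCR5-/- hearts (limma adjusted p = 0.0985 and 0.0534), and the latter passed with estimated array weights (-0.32), after quantile normalization (-0.29) and without WT Sham replicate 1 or CXCR5-/- Sham replicate 1 (-0.28 and -0.34). The differences of Ackr3, Ccl25, Ccr9, Ccl20, Ccr6, Ccl28, Ccr10 and Cxcl14 lay between -0.17 and 0.39, and none passed. Of these, Ccr9, Ccr6 and Ccl28 lay below background on every array (highest 4.36, 4.14 and 3.87), so a lack of change is not shown for them.

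**Figure D5:**
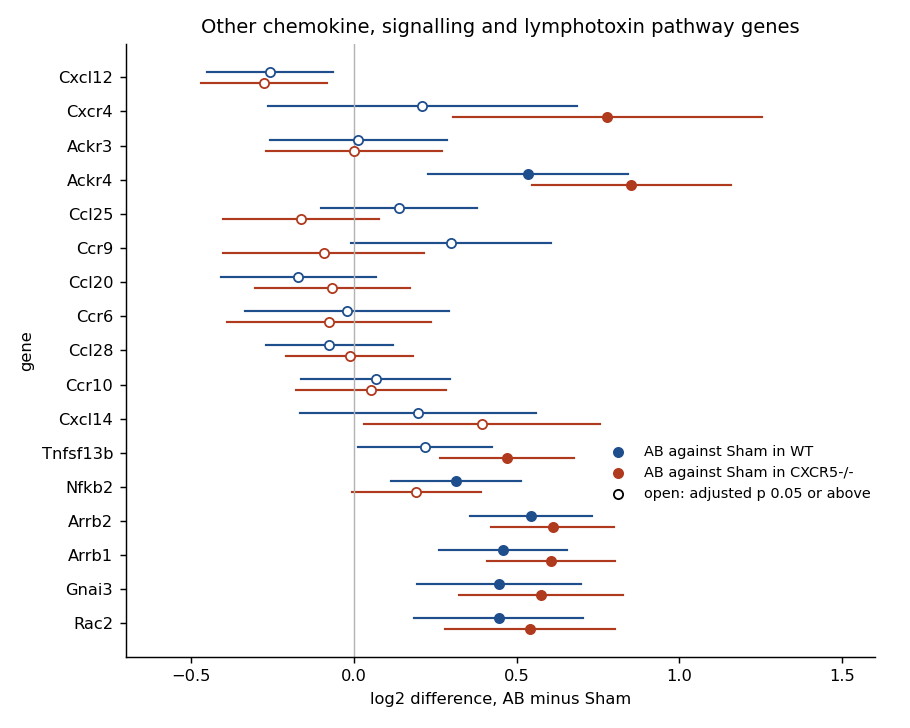
Log2 difference of AB minus Sham (x axis) with its 95% interval from limma in WT (blue) and CXCR5-/- hearts (red), for 11 other homeostatic chemokine and receptor genes and for the named genes of lymphotoxin signalling and chemokine receptor signalling (y axis). Filled points passed at an adjusted p under 0.05. Ackr4, Arrb2, Arrb1, Gnai3 and Rac2 passed in both genotypes.

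Transducers of chemokine receptor signals moved upwards where they moved. Among 16 measured genes 4 rose in WT hearts, 6 rose in CXCR5-/- hearts and none fell, with median differences of 0.12 and 0.22, where 5.1% and 8.28% of all genes rose. Arrb2 and Arrb1, which encode the β-arrestins that desensitize G protein-coupled receptors, rose in WT hearts by 0.54 and 0.46, and in CXCR5-/- hearts each by 0.61. Gnai3, an inhibitory G protein α subunit gene, rose by 0.45 and 0.58, and Rac2, a small GTPase gene of blood cells, by 0.44 and 0.54. The calls of Gnai3 and Rac2 in WT ended without some single arrays (WT Sham replicate 3, WT AB replicate 1 or 2 for Gnai3, 0.38 to 0.44, and WT Sham replicate 2 or 3 or WT AB replicate 3 for Rac2, 0.34 to 0.43). Without the 3 Sham arrays with high Myl7 Gnai3 differed by 0.47 in WT, and against the 1 CXCR5-/- Sham array left Gnai3 differed by 0.48 and Rac2 by 0.54. These proteins serve many receptors besides those of chemokines.

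The lymphotoxin and noncanonical NF-κB list, which holds regulators of the ligand genes, had 1 gene that rose in each genotype of 14 measured, a share near the 5.1% and 8.28% of all genes, and none that fell. Averaged over the genotypes 5 of 14 rose (Tnfsf13b, Map3k14, Nfkb2, Birc3 and Tnfrsf11a, by 0.25 to 0.34), where 12.3% of all genes did. Nfkb2, the gene of the p100 precursor, rose by 0.31 in WT hearts (SE 0.09, limma adjusted p = 0.0447) and differed by 0.19 in CXCR5-/- hearts (limma adjusted p = 0.216). Its call in WT ended under 14 of 19 alternatives, among them the loss of 11 arrays in turn, with differences from 0.27 to 0.37. Tnfsf13b, which encodes the B cell survival factor BAFF, rose by 0.47 in CXCR5-/- hearts (SE 0.10, limma adjusted p = 0.00305) and differed by 0.22 in WT hearts (limma adjusted p = 0.206), and its call held under all 19 alternatives (0.40 to 0.62). The median differences of the list were 0.11 and 0.03.

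Among markers of cells that make or answer these chemokines, most of those of fibroblasts rose, and few of those of lymphoid stroma, lymphocytes and dendritic cells did, in a background of 5.1% of all genes rising in WT and 8.28% in CXCR5-/- hearts. Of 9 lymphoid stroma markers, Pdpn, the gene of podoplanin, rose in WT by 0.81 (SE 0.14, limma adjusted p = 9.55e-04), and Pdpn and Bst1 rose in CXCR5-/- hearts by 1.25 and 0.62, where Bst1 in WT hearts differed by 0.42 (limma adjusted p = 0.0719, 0.0324 with the replicate number as a block). Of 10 fibroblast markers, 6 rose in WT and 9 in CXCR5-/- hearts, among them Fn1 by 1.53 and 1.70 and Col3a1 by 1.36 and 1.34. Of 12 macrophage markers, 6 and 8 rose, among them Cd68 by 0.86 and 1.09 and C1qb by 0.69 and 1.01. The lowest of them was Cd163, which differed by -0.54 in WT and -0.35 in CXCR5-/- hearts and fell by 0.45 averaged over the genotypes (limma adjusted p = 0.0346). Of 12 T cell markers, Thy1, which fibroblasts also express, rose by 0.76 and 0.57, and Cd28 changed by -0.53 in CXCR5-/- hearts (SE 0.14, limma adjusted p = 0.0151), while no other passed. The call of Cd28 ended without CXCR5-/- Sham replicate 1 or 3 or CXCR5-/- AB replicate 2 (-0.51 to -0.45), and against the 1 CXCR5-/- Sham array without high Myl7 it differed by -0.57 and Thy1 by 0.59. Of the B cell markers, the smallest p in WT belonged to Cd79a, a subunit gene of the B cell receptor complex (0.47, limma adjusted p = 0.124). It was above background on 1 array only. None of 11 B cell, 11 dendritic cell, 7 mesothelium, 4 thymus, 4 adipocyte and 4 atrial muscle markers passed for AB in either genotype. Averaged over the genotypes 3 B cell (at the levels given above), 1 dendritic cell (Itgax, 0.25) and 5 mesothelium markers rose. Itgax was above background on 4 arrays. Of 5 lymphatic endothelium markers, Mmrn1 rose by 0.49 in CXCR5-/- hearts (limma adjusted p = 0.0202), a call that ended without CXCR5-/- Sham replicate 1 or 3 or CXCR5-/- AB replicate 2 (0.40 to 0.49), with a difference of 0.66 from the 1 CXCR5-/- Sham array without high Myl7. Of 7 ventricular muscle markers, 1 fell in WT and 3 in CXCR5-/- hearts, where 4.22% and 5.86% of all genes fell, among them Ryr2, the gene of the calcium release channel, which dropped by 0.63 and 0.62. No gene of any of these lists passed between the genotypes after either operation. Of all genes, only 0.0201% after Sham and 0.0251% after AB were higher and passed, so this says little about the lists.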

How the data were processed

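RNA of 14 left ventricles was hybridized to Affymetrix mouse ST 1.0 arrays, and the authors deposited log2 expression values after robust multi-array average, for which no version was given in the sources used here. This quantile normalization gives all arrays nearly the same distribution (medians 5.19 to 5.30), so a shift common to most genes would not be seen. Probe sets were named by the platform annotation: of 34760, 21640 had 1 gene symbol, 1321 several and 11799 none, and 21553 matched RefSeq. The brightest probe set stood for each of 19937 genes. The 4 group means were fitted with limma 3.58.1 in R 4.3.3 (lmFit and eBayes, residual df 10) with Benjamini-Hochberg adjustment over all genes, and a gene passed at an adjusted p under 0.05, tests being two-sided. The number of arrays limits the precision. Each array is a separate mouse. Deviations of same-numbered arrays correlated by 0.125 to 0.22 between the AB groups, and by -0.109 to 0.451 between other pairs of groups. They were not compared with arrays of different numbers, so a pairing is not shown. Neither labels nor methods give the number a meaning. Genes named were the 4, the other homeostatic chemokine genes, up to 4 of each list that passed for AB by smallest p (in lists with none, up to 2), the 5 with the highest r to each of the 4 without predicted, olfactory and small RNA genes, and the 3 genes on either side of Cxcr5. Cd163, the genes of lists that passed only on average over the genotypes, and the Ccl21 probe set were named after their values were seen. The marker lists set beside Cxcl13 were also picked after their values were seen. The members and lists were chosen with earlier results of these data known. Statistical steps were tested on simulated data. Alternatives covered the variance model, array weights, significance analysis of microarrays, probe sets, a filter on dim genes, normalization, a block for the replicate number, and fits that left out 1 array or the 3 Sham arrays with high Myl7. Python 3.11.15 and matplotlib 3.10.9 drew the plots.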

Additional observations from a re-analysis of the deposited data

How the results depend on the processing

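Of the 28 differences of the 4 genes, the following changed their call or their sign, and the cause was not tested. Cxcl13 for AB in WT hearts lost its call with variances robust to outlying genes (2.55, adjusted p = 0.168), with all single-symbol probe sets tested (2.55, 0.0554), after a second quantile normalization (2.51, 0.0626) or median centring (2.52, 0.0538) and without the 3 Sham arrays with high Myl7 (2.41, 0.171), a setting that leaves 2 WT Sham arrays and 1 CXCR5-/- Sham array, so that a lost call cannot be told apart from the loss of replicates. In CXCR5-/- hearts it lost it with robust variances (2.89, 0.0897) and without those arrays (3.10, 0.247), where the genotype difference after Sham turned to -0.11. Cxcr5 between genotypes did not pass by significance analysis of microarrays (0.78 after Sham, q = 0.477, and 1.07 after AB, q = 0.122) nor after Sham without the 3 arrays (0.62, adjusted p = 0.9999), and for AB in CXCR5-/- hearts it passed with array weights (0.31, 0.0347). Ccl19 for AB in WT hearts did not pass as the mean of its probe sets (0.42, 0.178) nor by probe sets 10504132 (0.19), 10504188 (0.32) and 10512372 (0.34). It turned sign in CXCR5-/- hearts by 10512372 (0.24), between genotypes after AB by 10504188 (0.12) and 10512372 (0.0012), and by 10504132 for the mean AB effect (-0.033) and the mean genotype effect (-0.059), and it passed between genotypes after Sham with array weights (0.72, 0.0130). Ccr7, which passed nowhere, turned sign with array weights for AB in WT (-0.0023) and between genotypes after Sham (-0.0020) and without the 3 arrays for the difference of responses (-0.0083). Leaving out each array in turn gave, for AB, 2.14 to 3.18 for Cxcl13 in WT and 2.003 to 3.51 in CXCR5-/- hearts, -0.066 to 0.025 and 0.17 to 0.35 for Cxcr5, and -0.49 to -0.14 in CXCR5-/- hearts and 0.18 to 0.35 on average for Ccl19. It gave -0.54 to 0.97 for the difference of the Cxcl13 responses. Between genotypes it gave 0.74 to 0.87 for Cxcr5 after Sham, 0.70 to 1.06 for Ccl19 and -0.045 to 0.12 for Ccr7 after Sham, and -0.30 to 1.21 after AB and -0.030 to 0.72 on average for Cxcl13. Ccl19 on average over both genotypes passed for AB without CXCR5-/- Sham replicate 1 or CXCR5-/- AB replicate 1, and in CXCR5-/- hearts without CXCR5-/- Sham replicate 2 (adjusted p = 0.0446). The difference of its responses had adjusted p from 0.0775 to 1 over these. With the replicate number as a block no call of the 4 genes changed (Cxcr5 between genotypes after AB 1.07, adjusted p = 1.94e-04; Cxcl13 for AB 2.78 in WT and 3.12 in CXCR5-/- hearts). A filter on dim genes, at a mean of 4.13, removed Cxcr5. Over 19 alternatives the other homeostatic chemokine genes that rose numbered 0 to 1 in WT and 0 to 3 in CXCR5-/- hearts, receptor signalling genes 2 to 4 and 2 to 7, lymphotoxin genes 0 to 2 and 1 to 4, macrophage markers 3 to 8 and 6 to 10, B cell markers 0 to 1 and 0 to 2, mesothelium markers 0 to 3 and 0 to 3, dendritic cell markers 0 and 0 to 2, and adipocyte markers 0 and 0 to 2. Significance analysis of microarrays called 1097 genes higher and 740 lower for AB in WT, and 2343 and 1574 in CXCR5-/- hearts.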
